A study of Homo sapiens with 30 samples.

Results

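The genes described here are the 10 core genes of polyamine metabolism, taken by symbol from an RNA-Seq table of 26228 genes: ODC1, AMD1, SRM and SMS, which make polyamines, OAZ1, OAZ2 and AZIN1, which control ODC1 protein, and SAT1, SMOX and PAOX, which break polyamines down. All 10 were listed, and 9 of them were tested, since PAOX was near 0 in all libraries. Expression was measured in 30 libraries from SH-EP, an established human neuroblastoma (NB) cell line without MYCN amplification, and from 4 stable lines derived from it. The derived lines carry WT MYCN or its T58A, S62A, or T58A S62A form, delivered by retrovirus under an exogenous promoter, and in the mutant forms alanine replaces residues whose phosphorylation governs the turnover of the protein. Each of the 5 lines was grown in DMEM with 10% FBS and was given DMSO or 1 μM CYC065 (fadraciclib), an inhibitor of CDK9 and CDK2, for 6 hours, with 3 libraries for each line and treatment. Whether a derived line is 1 clone or a pool was not given in the sources used here, and no source says that the 3 libraries came from separate cultures, so p-values measure only the spread between these libraries.

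Polyamines (putrescine, spermidine and spermine) are small positively charged molecules that bind RNA, DNA and acidic lipids and that growing cells need. Ornithine decarboxylase, the product of ODC1, makes putrescine in the rate-limiting step. S-adenosylmethionine decarboxylase (AMD1) supplies the aminopropyl groups that spermidine synthase (SRM) and spermine synthase (SMS) add. ODC1 is a textbook target gene of MYC family proteins, and its enzyme is the target of the drug DFMO, which has been tested in children with NB. Antizymes send ODC1 protein to the proteasome, and their own synthesis depends on ribosomal frameshifting that polyamines stimulate, so an mRNA level of OAZ1 or OAZ2 is not a measure of antizyme protein.

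Values are FPKM (fragments per kilobase of transcript, relative to the mapped reads), as the authors deposited them. They were compared on 2 scales. As deposited, a gene's value is its share of the library per length. For spike-in scaled FPKM, each library was multiplied to equalise its ERCC spike-ins, RNAs of known amount added by cell number, so that a value follows the mRNA amount per cell. When the cells were counted, and whether dead cells were included, was not given in the sources used here. In these bulk samples fewer surviving cells and less RNA per cell therefore cannot be told apart. Below, "per cell" means on the spike-in scale, with this limit. A gene was called changed at a Benjamini-Hochberg adjusted p under 0.05 in limma, over the 11575 genes that averaged 1 FPKM or more. Values of several lines are listed in the order SH-EP, WT, T58A, S62A, T58A S62A, without SH-EP where it is the control, and libraries of a group are named by their column number, 0 to 2.

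MYCN was listed at 0 FPKM in all 6 SH-EP libraries and at 5.08 to 15.7 FPKM in the MYCN lines in DMSO. Mesenchymal markers were present in every library (PRRX1, from 21.6 to 117 FPKM, and VIM, from 1310 to 4600 FPKM), whereas of the adrenergic markers PHOX2A was at 0 in 30 libraries and DBH in 29. TH did not exceed 0.969 FPKM, but GATA2 was at 5.26 to 22.4 FPKM. The total read number is unknown, and the relative depth read from low values was 0.47 to 1 in DMSO and 0.293 to 0.554 with CYC065, where 1 is the deepest library. The index of each of the 6 SH-EP libraries recurred on a library of a MYCN line, and whether SH-EP was sequenced apart from the MYCN lines was not given in the sources used here.

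Of the members searched, ODC1 (chromosome 2, 10580094 to 10588453 of GRCh37, minus strand) and SRM (chromosome 1, 11114641 to 11120077, minus strand) had a window that holds CACGTG, the E-box letters bound by MYC and MAX. A window runs from 250 bases before to 50 after a start in RefSeq (GRCh38.p14), and ODC1 has 2 starts there. ODC1 and SRM are shown because the derived lines overexpress MYCN. CACGTG reads the same on both strands and is in capitals. It was present in 7.26% of the 35116 windows of all genes, and at least 2 copies were present in 0.664%. Windows of 7 of the 10 members were searched, and none of AZIN1, SMOX or PAOX was. The ODC1 stretch (chr2:10588128-10588238 of GRCh37, minus strand, printed 5′ to 3′) holds 2 copies. Both are in the window of the start at 10588138, and the window of the start at 10588453, 315 bases away, holds none. The copies lie in intron 1 of the longest transcript, 286 and 320 bases downstream of its start at 10588453. The SRM stretch (chr1:11120076-11120325, minus strand) holds 1 copy, 194 bases upstream of the start of the longest transcript at 11120075. The letters were not in the windows of AMD1, SMS, OAZ1, OAZ2 or SAT1, and a match is a description of the sequence and not evidence that a factor bound it.
ODC1: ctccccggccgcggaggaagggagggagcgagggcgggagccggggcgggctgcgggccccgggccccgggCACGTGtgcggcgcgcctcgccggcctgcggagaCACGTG
SRM: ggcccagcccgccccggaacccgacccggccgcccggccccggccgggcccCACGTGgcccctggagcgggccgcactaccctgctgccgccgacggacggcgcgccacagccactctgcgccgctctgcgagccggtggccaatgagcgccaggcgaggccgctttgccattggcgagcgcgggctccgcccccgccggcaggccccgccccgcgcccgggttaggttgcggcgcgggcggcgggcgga

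In SH-EP cells in DMSO, the members spanned a wide range of levels. The highest was OAZ1 at 599.5 ± 5.85 FPKM (mean ± SD, n = 3), followed by SRM at 132 ± 6.92, ODC1 at 95.7 ± 4.67, AMD1 at 61.1 ± 0.552, SMS at 58.9 ± 3.31, AZIN1 at 58.5 ± 2.29, and OAZ2 at 41.4 ± 1.73. The libraries of AMD1, SMS and AZIN1 overlapped, so their order is not resolved. The catabolic genes were low. SAT1, the acetyltransferase that marks spermidine and spermine for export or breakdown, was at 6.04 ± 0.728 FPKM, SMOX, spermine oxidase, was at 5.12 ± 0.632, and their libraries overlapped. PAOX, the oxidase of acetylated polyamines, was listed at 0 in 25 of the 30 libraries and did not exceed 0.236 FPKM in the other 5.

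**Figure D1:**
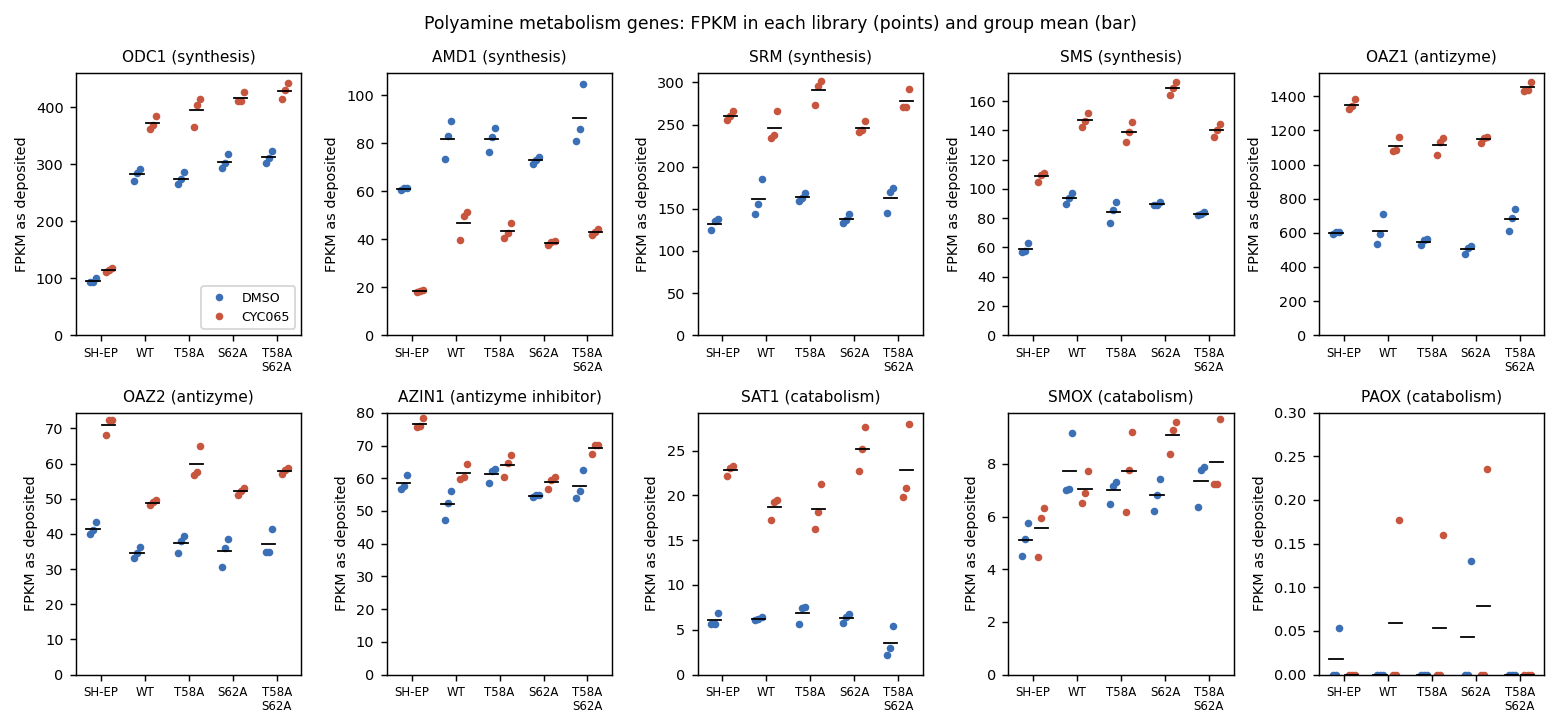
FPKM as deposited (y axes, each from 0) of the 10 members in the 5 lines (x axes), with 1 point per library, 3 per group, and a bar at the group mean, for DMSO (blue) and CYC065 (red). ODC1 in the MYCN lines in DMSO (265 to 324 FPKM) lies above every SH-EP library (92.8 to 119), and AMD1 is lower with CYC065 than in DMSO in all 5 lines, whereas SAT1 is higher.

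The first comparison asks which members differed between the MYCN lines and SH-EP. As a share of the library, ODC1, SMS and AMD1 of the 4 synthesis genes were higher in all 4 MYCN lines, ODC1 by far the most. SRM was higher in 3 of them. On the spike-in scale described further on, SMS, AMD1 and SRM had changes below 0 in all 4 lines, and ODC1 in S62A. In DMSO, ODC1 was at 92.8, 93.3 and 101 FPKM in SH-EP. It was at 270.0, 284 and 292 FPKM in WT, 265, 274 and 286 in T58A, 294, 302 and 318 in S62A, and 302, 311 and 324 in T58A S62A. The lowest MYCN-line library was thus above the highest SH-EP library. The log2 change was 1.56, 1.52, 1.67 and 1.71 (SE 0.05 each), or 2.95-, 2.87-, 3.18- and 3.26-fold, and the largest adjusted p in limma was 1.04e-17.

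SMS, which makes spermine, was also higher in each MYCN line. Its 3 libraries were at 56.8, 57.3 and 62.8 FPKM in SH-EP and at 89.4, 93.8 and 97.5 in WT, and no DMSO library of the other MYCN lines was below 77.0 FPKM. The log2 change was 0.67, 0.52, 0.61 and 0.50 (SE 0.05 each, limma adjusted p at most 2.09e-08). AMD1 was at 60.5, 61.4 and 61.5 FPKM in SH-EP and between 71.2 and 105 FPKM in the 12 DMSO libraries of the MYCN lines, so the groups did not overlap. Its log2 change was 0.42, 0.42, 0.25 and 0.56 (SE 0.09, limma adjusted p 0.000269, 0.000274, 0.0169 and 7.99e-06). The S62A value lost the call without S62A DMSO library 1 (adjusted p = 0.0501 by limma). Outside S62A, SRM rose by 0.28, 0.31 and 0.30 (SE 0.07, limma adjusted p at most 0.00229), and its S62A libraries, at 133 to 144 FPKM, overlapped those of SH-EP, at 125 to 138 (log2 change 0.06, adjusted p = 0.518). In a limma fit of only WT and SH-EP, the SRM call in WT was lost (adjusted p = 0.0552).

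The antizymes and their inhibitor moved little. OAZ1, the most abundant member, was 0.25 lower in S62A on the log2 scale (SE 0.07, limma adjusted p = 0.00398) and 0.18 higher in T58A S62A (adjusted p = 0.0373 by limma), whereas its changes of 0.02 in WT and -0.13 in T58A did not pass the test. OAZ2, another antizyme, was lower in WT (-0.25, limma adjusted p = 0.00476) and in S62A (-0.25, adjusted p = 0.00632), and was at -0.15 in T58A and -0.17 in T58A S62A without passing. AZIN1, which binds antizyme in place of ODC1 protein and so spares it, passed the test in WT (-0.17, SE 0.06, limma adjusted p = 0.015), at 47.2, 52.5 and 56.2 FPKM against 56.6, 57.7 and 61.0 in SH-EP. The AZIN1 call in WT was lost in limma without WT DMSO library 0 (adjusted p = 0.136) or SH-EP DMSO library 0 (0.0763), and that of OAZ2 in S62A without S62A DMSO library 0 (0.0775). The OAZ1 call in T58A S62A was lost without any of the 3 SH-EP libraries or T58A S62A DMSO library 0 or 2 (limma adjusted p from 0.0674 to 0.215).

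Among the catabolic genes, SMOX was higher in the MYCN lines and SAT1 was lower in T58A S62A. SMOX was at 4.49, 5.13 and 5.75 FPKM in SH-EP and at 6.23 to 9.18 FPKM in the MYCN lines in DMSO, without overlap. Its log2 change was 0.58, 0.45, 0.41 and 0.51 (SE 0.15, limma adjusted p 0.00214, 0.0151, 0.0241 and 0.00591). Without SH-EP DMSO library 0 the T58A and S62A calls ended (adjusted p = 0.0836 and 0.118 by limma), the latter also without S62A DMSO library 0 (0.053) or 2 (0.0938). SAT1 was at 5.58, 5.66 and 6.88 FPKM in SH-EP and at 2.17, 3.01 and 5.46 FPKM in T58A S62A, a log2 change of -0.85 (SE 0.20, limma adjusted p = 0.000851). The T58A S62A libraries were spread more widely than those of any other DMSO group, and in a limma fit of only these groups the adjusted p was 0.0848. In the other MYCN lines SAT1 overlapped SH-EP, with log2 changes of 0.05 to 0.17.

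Counted over the 9 members tested, 7 passed in WT (5 higher, 2 lower), where 54.2% of all genes tested passed, 31.6% higher and 22.6% lower. In T58A 5 passed, all higher (all genes 54.2%, 30.9% higher and 23.3% lower), in S62A 6 passed, 4 higher and 2 lower (all genes 54.3%, 31.0% higher and 23.4% lower), and in T58A S62A 7 passed, 6 higher and 1 lower (all genes 55.3%, 31.2% higher and 24.1% lower). ODC1, SMS, AMD1 and SMOX were higher in all 4 lines, and the share of all genes higher in all 4 was not counted. The median log2 change of the members was 0.28, 0.31, 0.07 and 0.30, and that of all genes was 0.07, 0.05, 0.06 and 0.06. The 4 comparisons share the 3 SH-EP libraries in DMSO. Other genes moved with the same comparison. The mesenchymal markers FN1 (log2 change -3.42 to -2.54), PRRX1, SNAI2, VIM and CD44 were lower in all 4 MYCN lines as deposited. TWIST1, the sixth mesenchymal marker, was higher in T58A S62A (0.70, limma adjusted p = 5.36e-05), and its changes of 0.29, 0.23 and -0.11 in the other lines did not pass. The part of these markers in the member values was not tested.

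On spike-in scaled FPKM the direction turned for most of these genes. The median change of all genes was -1.18, -0.89, -1.88 and -0.76 on the log2 scale, and 89.7%, 79.9%, 95.5% and 72.4% of all genes passed. Higher were 0.985%, 1.86%, 0.38% and 2.26%, and lower were 88.7%, 78.0%, 95.1% and 70.2%. Of the 36 member values, 30 passed, and 28 of these were lower. ODC1 stood apart from the other members. Its scaled value was 302, 309 and 311 FPKM in SH-EP, 320, 345 and 481 in WT, 328, 515 and 548 in T58A, 229, 240 and 283 in S62A, and 476, 585 and 627 in T58A S62A. In T58A it was higher by a log2 change of 0.56 (SE 0.18, limma adjusted p = 0.006), and the T58A S62A change was 0.86 (SE 0.18, limma adjusted p = 0.000146), a direction that 1.86% and 2.26% of all genes shared. It did not pass in WT (0.29, adjusted p = 0.12) or S62A (-0.30, adjusted p = 0.106). In limma fits of only the groups compared, the T58A call was lost (adjusted p = 0.0561) and ODC1 was called lower in S62A (adjusted p = 0.0187), as it was in S62A when only spike-ins of at least 50 FPKM set the scale (-0.52, limma adjusted p = 0.0496). Relative to the median of all genes, ODC1 was 1.47, 1.45, 1.58 and 1.63 higher on the log2 scale, close to its changes as deposited. No other member was called higher in any line on this scale, and SMS and AMD1, higher as deposited, were lower in 3 lines each. In T58A these calls were lost without T58A DMSO library 1, where AMD1 went from -0.54 to -0.27 (limma adjusted p = 0.163) and SMS from -0.44 to -0.22 (0.241), and SMS also without SH-EP DMSO library 2 (0.0905). They were also lost with only the groups compared (limma adjusted p = 0.084 and 0.105) and with spike-ins of at least 50 FPKM (0.126 and 0.247). The spike-in median that sets the scale differed between libraries of 1 group by 0.0546 to 0.696 log2 units, most in T58A in DMSO. By group in DMSO, this log2 median was 2.692 for SH-EP, against 3.96 for WT, 3.655 for T58A, 4.661 for S62A and 3.534 for T58A S62A. It moves all genes of a library together. How far cell counting or spike-in addition differed by line, and its part in these scaled changes, was not tested.

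**Figure D2:**
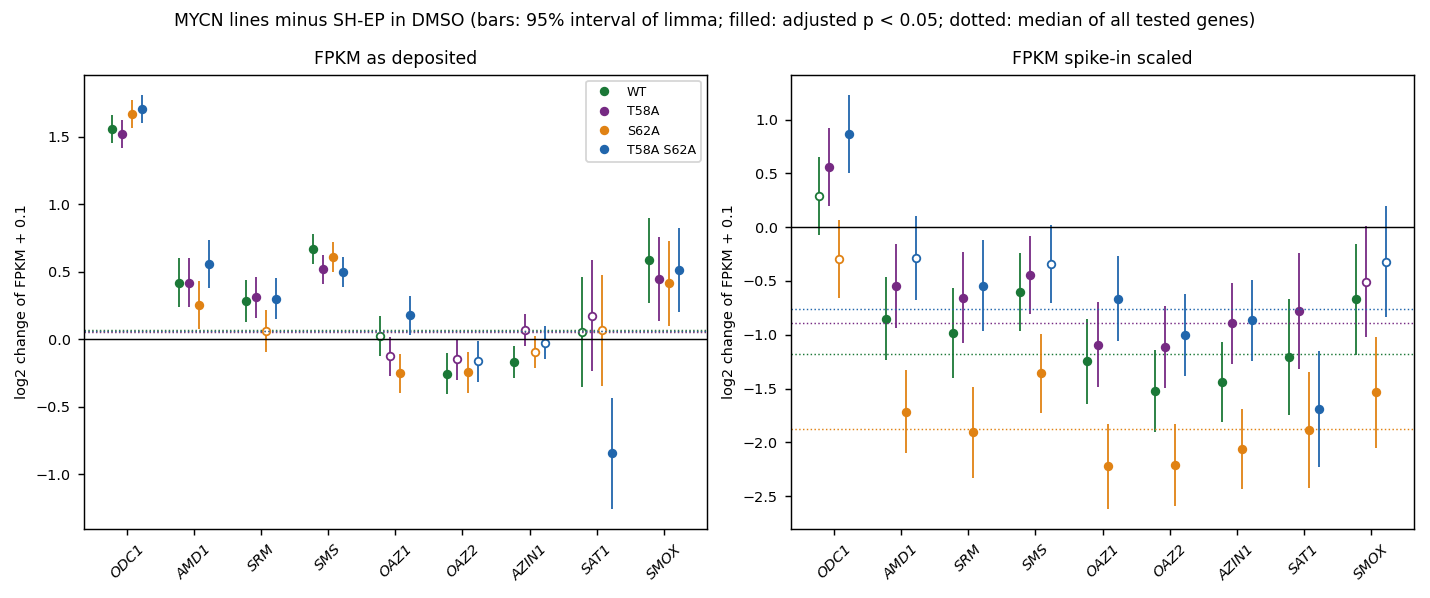
Log2 change of FPKM + 0.1 (y axes) of the 9 tested members (x axes) in DMSO, each MYCN line against SH-EP, as deposited (left) and spike-in scaled (right), with 95% intervals of limma, filled points for an adjusted p under 0.05, and dotted lines at the median of all genes tested. ODC1 lies at 1.52 to 1.71 on the left and is the only member above 0 on the right in WT, T58A and T58A S62A.

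The mutant lines were next compared with WT in DMSO, to see whether members differed with the MYCN form. Differences were small, and 7 of 27 member values passed as deposited, where 23.6% (T58A), 24.1% (S62A) and 23.7% (T58A S62A) of all genes did. ODC1 was 0.15 higher in T58A S62A than in WT on the log2 scale (SE 0.05, limma adjusted p = 0.0329), and at -0.04 in T58A and 0.11 in S62A without passing (95% intervals of limma in those 2 lines: -0.14 to 0.06 and 0.01 to 0.21). SAT1 was 0.90 lower in T58A S62A (SE 0.20, adjusted p = 0.00159). OAZ1 (-0.28, adjusted p = 0.00548) and SRM (-0.22, adjusted p = 0.0297) were lower in S62A by the same limma test, SMS was lower in T58A and T58A S62A (-0.15 and -0.17, adjusted p = 0.0419 and 0.0196), and AZIN1 was higher in T58A (0.24, adjusted p = 0.00375). When only the groups compared entered the limma fit, 0 of these 27 values passed (4 had an unadjusted p under 0.05, and the smallest adjusted p was 0.0785). On spike-in scaled FPKM, all 9 members were lower in S62A than in WT, where 75.1% of all genes passed, and 5 were higher in T58A S62A (24.3% of all genes passed). Of the 11575 genes, 8673 were lower in S62A and 2700 were higher in T58A S62A. The median change in S62A was -0.71 for all genes and -0.76 for the members, and in T58A S62A 0.395 and 0.52. On this scale T58A had 0 calls (8.54% of all genes), and 9 calls in all were made with only the groups compared. Without WT DMSO library 0 or 1 there were 4 calls as deposited, and without WT DMSO library 1 or 2 or T58A S62A DMSO library 1 there were 9 on scaled values. The S62A line also had the lowest MYCN, at 5.08, 5.51 and 6.59 FPKM as deposited, against 11.7, 13.3 and 13.7 in WT, and the part of the MYCN level in these differences was not tested.

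The second question was how the members responded to CYC065. Per cell, most transcripts were lower after 6 hours. The CYC065 libraries were also shallower, and the part of depth was not tested. As deposited, the FPKM of all genes summed to 415637 to 496771 per library in DMSO and to 667866 to 761639 with CYC065. The part of this rise in the deposited changes of the members was not tested, and the deposited median change of all genes was 0.06 to 0.15 over the 5 lines. The median change of all genes on spike-in scaled FPKM was -1.08, -1.58, -1.09, -1.35 and -0.98 on the log2 scale. The members' medians were -0.49, -1.19, -0.52, -0.92 and -0.43. AMD1, AZIN1, ODC1, SMOX and OAZ2 were lower in all 5 lines, and SAT1 was the only member called higher in any line. The share of all genes lower in all 5 lines was not counted. Of the 9 members, 6, 8, 6, 7 and 6 passed, of which 5, 8, 6, 7 and 5 were lower, where 77.2%, 94.5%, 85.8%, 91.2% and 78.3% of all genes passed. Of all genes 0.89%, 0.769%, 1.24%, 0.959% and 1.84% were higher, and 76.3%, 93.7%, 84.5%, 90.2% and 76.4% were lower.

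AMD1 fell furthest. As deposited, AMD1 went from 60.5, 61.4 and 61.5 FPKM in DMSO to 18.2, 18.5 and 19.0 FPKM with CYC065 in SH-EP. In WT it went from 73.6, 83.1 and 89.1 FPKM to 39.7, 49.7 and 51.3, and in T58A from 76.3, 82.5 and 86.5 to 40.6, 42.7 and 46.7. In S62A it went from 71.2, 73.1 and 74.3 FPKM to 37.7, 38.7 and 39.3, and in T58A S62A from 80.9, 85.7 and 105 to 41.6, 43.0 and 44.3. The groups did not overlap in any line. Its log2 change as deposited was -1.71, -0.81, -0.92, -0.92 and -1.06 (SE 0.09, limma adjusted p at most 1.57e-08). Spike-in scaled, the change was -2.98, -2.50, -2.11, -2.41 and -2.15 (SE 0.19, limma adjusted p at most 2.02e-10), so that 0.127 to 0.225 of the DMSO level per cell remained. AMD1 was the only member lower on both scales in all 5 lines, and these calls held in all 37 alternative settings tried.

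ODC1 differed between the scales. As deposited it was at 111, 115 and 119 FPKM with CYC065 in SH-EP and at 362 to 442 FPKM in the 12 CYC065 libraries of the MYCN lines, each group above its own DMSO group. The log2 change was 0.27, 0.40, 0.52, 0.45 and 0.46 (SE 0.05, limma adjusted p at most 3.61e-05). Spike-in scaled, ODC1 was lower by the same test, with log2 changes of -1.0, -1.29, -0.68, -1.05 and -0.63 (SE 0.18, limma adjusted p at most 0.00239). The T58A call was lost when only spike-ins of at least 50 FPKM set the scale (adjusted p = 0.0768 by limma). Both signs describe the same libraries. On scaled values the change of ODC1 lay above the median of all genes by 0.08 in SH-EP and by 0.28 to 0.41 in the MYCN lines. That distance was not tested. The order of the groups as deposited ran from SH-EP in DMSO through SH-EP with CYC065 and the MYCN lines in DMSO to the MYCN lines with CYC065, with overlaps of T58A and WT, and of S62A and T58A S62A, in DMSO.

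SAT1 rose as a share of the library in every line. In SH-EP it was at 22.2, 23.1 and 23.2 FPKM with CYC065, 3.78-fold its DMSO mean. With CYC065 it was at 17.2, 19.2 and 19.5 FPKM in WT, 16.2, 18.1 and 21.2 in T58A, 22.7, 25.1 and 27.6 in S62A, and 19.9, 20.8 and 27.9 in T58A S62A, above every DMSO library. The log2 change as deposited was 1.91, 1.56, 1.42, 1.97 and 2.74 (SE 0.20, limma adjusted p at most 8.34e-07). Per cell, on spike-in scaled FPKM, it was higher in T58A S62A (1.67, SE 0.26, limma adjusted p = 2.59e-06), where 1.84% of all genes were, and in SH-EP (0.66, SE 0.26, adjusted p = 0.0255), where 0.89% were. It was at -0.11 in WT, 0.23 in T58A and 0.48 in S62A without passing. The SH-EP call was lost without DMSO library 0 or 1 or CYC065 library 0 or 1 of that line (adjusted p from 0.0664 to 0.0855 by limma).

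OAZ1, SRM, SMS and OAZ2 rose as a share of the library with CYC065, and per cell none of them was called higher. OAZ1 went from 593 to 603 FPKM in SH-EP in DMSO to 1323, 1346 and 1386 with CYC065, a log2 change of 1.17 (SE 0.07, limma adjusted p = 3.29e-13), and by 0.86 to 1.19 in the MYCN lines. Spike-in scaled, OAZ1 was lower in WT (-0.83, SE 0.19, limma adjusted p = 0.000229), and in the other lines its changes of -0.09, -0.17, -0.32 and 0.01 did not pass. The log2 change as deposited over the 5 lines was 0.61 to 0.98 for SRM, 0.65 to 0.91 for SMS and 0.50 to 0.78 for OAZ2. Per cell, SRM was lower in WT (-1.08) and S62A (-0.67), SMS in the same lines (-1.04 and -0.59) and T58A (-0.48), and OAZ2 in all 5 lines (-1.19 to -0.43), each past the threshold in limma. The OAZ2 call was lost in SH-EP without its DMSO or CYC065 library 2 (limma adjusted p = 0.0505 and 0.0888), in T58A without DMSO library 2 (0.0988), and in T58A S62A without DMSO or CYC065 library 0 or 1 (0.0516 to 0.196), and the SMS call in T58A without DMSO library 0 or 2 or CYC065 library 2 (0.0548 to 0.127).

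AZIN1 and SMOX fell per cell. Relative to the median of all genes on scaled values, the AZIN1 change was 0.20, 0.13, -0.04, -0.04 and 0.16. That of SMOX was -0.06, -0.21, 0.03, 0.29 and 0.03, and these distances were not tested. AZIN1 was lower per cell in all 5 lines, by log2 changes of -1.44 to -0.81 (limma, adjusted p at most 0.000259), and as deposited was higher in SH-EP (0.39), WT (0.25) and T58A S62A (0.27), with 0.06 in T58A and 0.11 in S62A not passing. With libraries centred on their median, those AZIN1 values were 0.25 and 0.27 and passed (limma adjusted p = 0.000424 and 0.000157), and S62A also passed with only the groups compared (0.0294). SMOX was lower per cell by -1.78 in WT and by -1.14 to -0.95 in the other lines (SE 0.25, limma adjusted p at most 0.0014). As deposited SMOX passed in S62A (0.41, adjusted p = 0.0182 by limma), at 8.39, 9.29 and 9.61 FPKM with CYC065 against 6.23, 6.84 and 7.45 in DMSO. Its call there ended without S62A DMSO library 1 (adjusted p = 0.0752 by limma) or CYC065 library 1 (0.0601). As deposited, 39 of 45 member values passed, 34 higher and 5 lower, the last all AMD1. The share of all genes passing as deposited was 76.3%, 71.2%, 71.4%, 73.4% and 72.8%, with 42.7%, 37.0%, 38.1%, 38.8% and 38.6% of all genes higher and 33.5%, 34.2%, 33.3%, 34.6% and 34.2% lower.

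**Figure D3:**
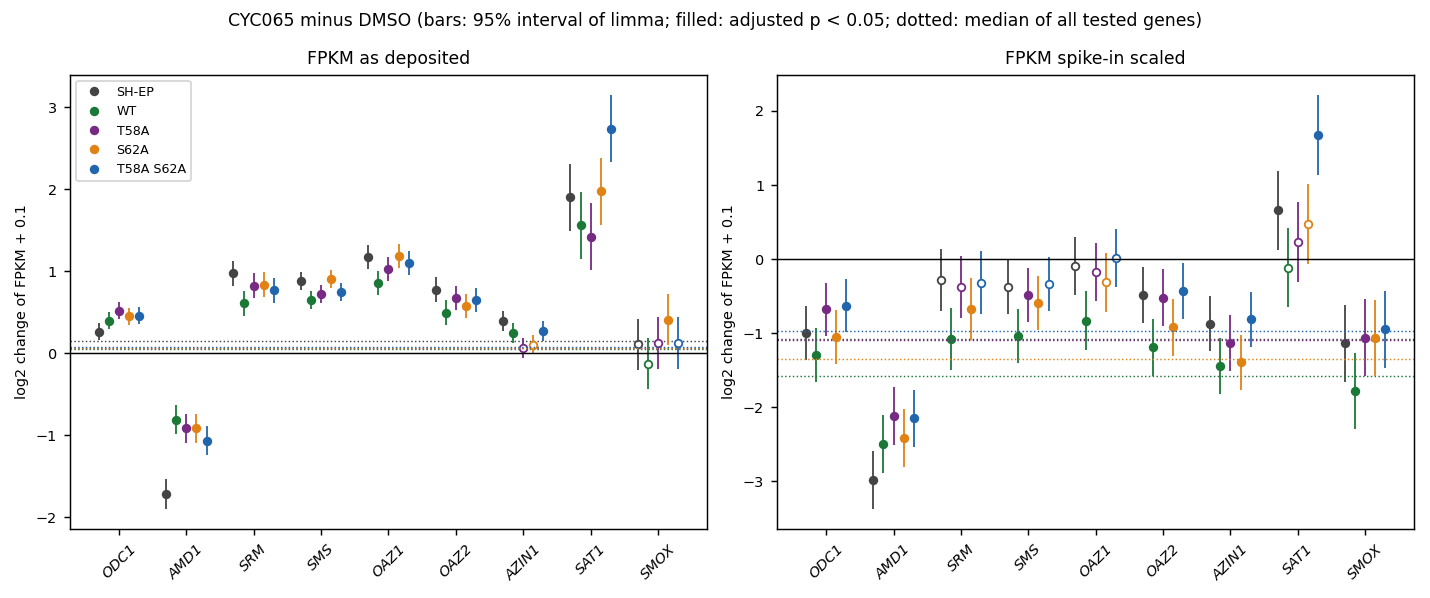
Log2 change of FPKM + 0.1 (y axes) of the 9 tested members (x axes) with CYC065 against DMSO in the 5 lines, as deposited (left) and spike-in scaled (right), with 95% intervals of limma, filled points for an adjusted p under 0.05, and dotted lines at the median of all genes tested. AMD1 lies below the median on both scales, and SAT1 lies highest, at 1.42 to 2.74 on the left and -0.11 to 1.67 on the right.

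Whether the MYCN lines responded to CYC065 as SH-EP did was tested by the interaction of line and treatment. As deposited, AMD1 fell less in every MYCN line than in SH-EP, by 0.91, 0.80, 0.80 and 0.65 on the log2 scale (SE 0.12, limma adjusted p at most 0.000388). Of 36 member values, 13 passed, where 28.6% (WT), 23.9% (T58A), 24.6% (S62A) and 25.4% (T58A S62A) of all genes did. Spike-in scaled, 0 passed by limma, 10 had an unadjusted p under 0.05, and the smallest adjusted p was 0.0557, where 16.0%, 2.66%, 4.83% and 5.46% of all genes passed. The scaled AMD1 differences had the same sign, at 0.48, 0.87, 0.57 and 0.83 (SE 0.27, adjusted p = 0.17, 0.0897, 0.244 and 0.0724 by limma). Averaged over the 4 lines, AMD1 fell less by 0.79 as deposited (limma adjusted p = 1.39e-06), where 33.3% of all genes passed. On the scaled values that mean was 0.69 (adjusted p = 0.0525 by limma). For MAT2A, which makes the substrate of AMD1, the mean was 0.99 as deposited (limma adjusted p = 1.61e-07). Spike-in scaled it was 0.88 (limma adjusted p = 0.0103), where 6.02% of all genes passed. MAT2A was the only 1 of the 21 further pathway genes tested, described below, that passed for the scaled mean, and 20 did not. As deposited, 2 of these 21 genes were higher for the mean, 4 were lower and 15 did not pass. Leaving out 1 library gave 0 to 6 member calls on the scaled values, the most without T58A DMSO library 1. The SH-EP libraries are the control in all of these comparisons.

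Ratios of 2 members within a library do not depend on the scaling, and they were described without a test. ODC1 was 15.7 times SAT1 in SH-EP in DMSO, and 44.5, 39.8, 47.6 and 91.8 times in the MYCN lines, as ratios of geometric means of FPKM. With CYC065 it was 5.02 times in SH-EP and 19.9, 21.3, 16.6 and 18.9 times in the MYCN lines, and in each line the CYC065 libraries lay below the DMSO libraries. The ratio of ODC1 to OAZ1 was 0.16 in SH-EP in DMSO and 0.461 to 0.605 in the MYCN lines, and 0.0851 and 0.295 to 0.362 with CYC065. The ratio of AZIN1 to OAZ1 was 0.0849 to 0.112 over the 5 lines in DMSO and 0.0477 to 0.0575 with CYC065, again with no overlap within a line. That of SRM to SMS, the aminopropyl transferases, moved least with treatment, from 2.25 to 2.4 in SH-EP and within 1.46 to 2.09 in the MYCN lines.

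**Figure D4:**
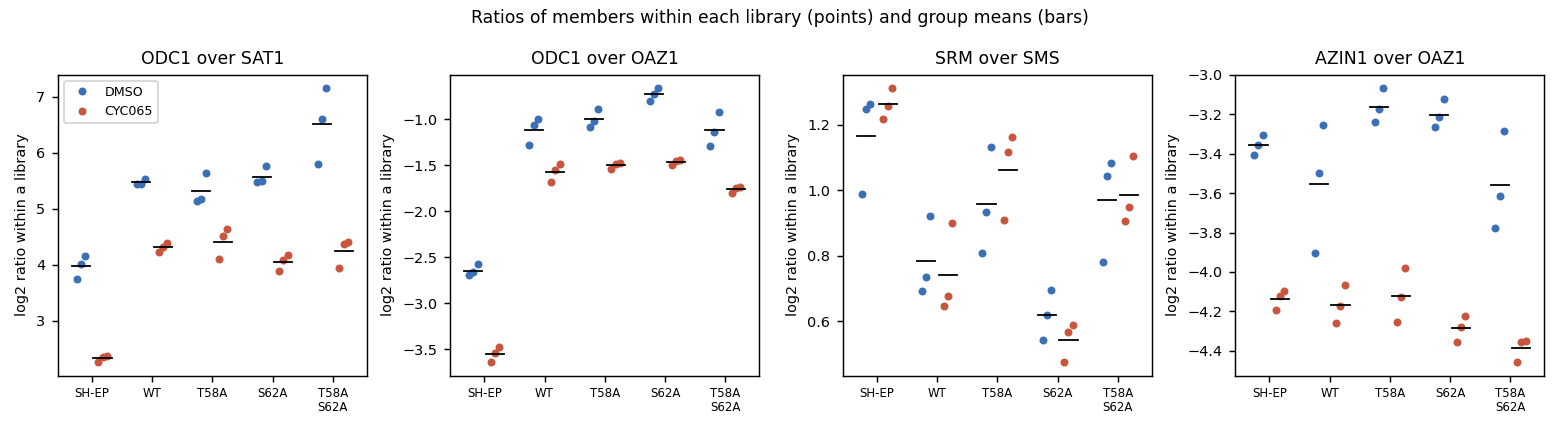
Log2 ratio of FPKM + 0.1 of 2 members within each library (y axes) in the 5 lines (x axes), with 1 point per library and a bar at the group mean, for DMSO (blue) and CYC065 (red). ODC1 over SAT1 is 3.97 in SH-EP and 5.31 to 6.52 in the MYCN lines in DMSO (group means), and is lower with CYC065 in all 5 lines.

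Genes that feed, use or move polyamines were counted from a list of 28, of which 21 were tested. In the MYCN lines as deposited, 62 of 84 values passed, 51 higher and 11 lower. Of the 21 genes, 12 were higher in all 4 lines, comparisons that share the SH-EP libraries. The share of all genes higher in all 4 lines was not counted. Of all genes, 54.2% to 55.3% passed, 30.9% to 31.6% higher and 22.6% to 24.1% lower. The largest mean changes of the 4 lines were those of ARG2 (1.04), which makes ornithine from arginine, DOHH (0.81), which completes the hypusine residue that spermidine provides, MTAP (0.78), which recycles the methylthioadenosine left by SRM and SMS, and EIF5A (0.75), the protein that carries hypusine. SLC18B1 (0.72), a vesicular polyamine transporter, and ENOPH1 (0.63), of the methionine salvage path, followed (limma, adjusted p for the mean at most 4.16e-08 in these 6 genes). In FPKM, EIF5A was at 541, 560 and 581 in SH-EP and at 774 to 1090 in the MYCN lines in DMSO. The list's median change was 0.39, 0.31, 0.36 and 0.41 by line, and that of all genes 0.07, 0.05, 0.06 and 0.06. Spike-in scaled, 19, 13, 21 and 10 of the 21 genes were lower, 63 of the 84 values, and none was higher, where 88.7%, 78.0%, 95.1% and 70.2% of all genes were lower.

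With CYC065, 92 of 105 values of the same list passed on spike-in scaled FPKM, all lower. By line, 76.3% to 93.7% of all genes were lower. Of the list, 15 genes were lower in all 5 lines, and the share of all genes lower in all 5 was not counted. MAT2A, the catalytic subunit of the enzyme that makes S-adenosylmethionine, the substrate of AMD1, was lower on both scales in all 5 lines. As deposited it was at 172, 188 and 197 FPKM in SH-EP in DMSO and at 44.3, 44.5 and 45.6 with CYC065. Its log2 change was -2.04, -1.06, -1.28, -0.93 and -0.97 as deposited, and -3.31, -2.75, -2.48, -2.43 and -2.05 spike-in scaled (SE 0.19, limma adjusted p at most 4.5e-10). MAT2B, the regulatory subunit of that enzyme, was lower per cell in all 5 lines (-2.08 to -1.30) and as deposited fell in 4, its change in T58A being -0.10 (adjusted p = 0.238 by limma). As deposited, 69 of the 105 values passed, 56 higher and 13 lower, where 71.2% to 76.3% of all genes passed, 37.0% to 42.7% higher and 33.3% to 34.6% lower.

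Over the 10 group means of log2(FPKM + 0.1) as deposited, the genes outside both lists whose pattern was most like that of ODC1 were SAA1 (Pearson r = 0.993), SPR (0.990) and STK26 (0.990). Those most like SAT1 were LSMEM1 (0.988), SMAD7 (0.977) and SEC63 (0.976). These are descriptions over 10 points that share lines and treatments. SPR was at 14.2 to 15.9 FPKM in SH-EP in DMSO and at 29.8 to 42.3 in the MYCN lines, and SMAD7 was at 7.74 to 12.8 FPKM in all DMSO libraries and at 26.1 to 42.0 with CYC065. MYC, the paralog that SH-EP expresses, was at 4.64 to 5.51 FPKM in SH-EP and 0.377 to 1.93 in the MYCN lines in DMSO, and at 16.7 to 18.6 and 4.04 to 13.1 with CYC065, and its part in the values of ODC1 was not tested.

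Processed pseudogenes of ODC1 and AMD1 exist in the human genome, and how reads shared with such copies were assigned was not given in the sources used here. The positions of the other tested members in GRCh37 were chromosome 6, 111195973 to 111220082, for AMD1, chromosome X, 21958827 to 22012955, for SMS, chromosome 19, 2269508 to 2273489, for OAZ1, chromosome 15, 64979772 to 64995480, for OAZ2, chromosome 8, 103838339 to 103906092, for AZIN1, chromosome X, 23801290 to 23804327, for SAT1, and chromosome 20, 4101627 to 4168394, for SMOX. PAOX lies on chromosome 10, 135192765 to 135205198.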

How the data were processed

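RNA-Seq of 30 libraries in 10 groups of 3 was used. The authors aligned reads to hg19 with HISAT2 and deposited FPKM per gene, computed with Cufflinks 2.2.1. The annotation was not given in the sources used here, and ERCC spike-ins had been added by cell number. Groups came from the sample labels. FPKM was analysed as log2(FPKM + 0.1), a scale that understates changes of low genes, for 11575 genes averaging 1 FPKM or more. One limma model (limma 3.58.1, R 4.3.3, intensity trend) held all 10 groups, with Benjamini-Hochberg adjustment over all genes tested in each contrast. FPKM as deposited was used for lines and mutants, and FPKM scaled by 55 of the 92 spike-ins for CYC065 and its interaction, with the other scale beside each. The fit was tested on simulated data. Read totals are unknown, so no counting interval was given.

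The members and lists were chosen with earlier results of these data known. Named beside the members were listed pathway genes past the threshold in one direction in all 4 MYCN lines as deposited, or in all 5 lines with CYC065 on scaled FPKM with the direction kept as deposited, at most 6 with the largest mean change each. The 3 genes with the highest Pearson correlation with ODC1 and with SAT1 over group means were also named, as were MYCN and MYC. Alternatives were pseudocounts of 1 and 0.01, no filter and a filter at 5 FPKM, only the groups compared, robust eBayes, median centring (as deposited) or the 21 spike-ins of at least 50 FPKM (scaled), and leaving out each library. Some adrenergic markers are not reported here.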

Additional observations from a re-analysis of the deposited data

Results flagged for a closer look

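The CYC065 response as deposited differed between MYCN lines and SH-EP by limma's interaction term for 17 values. Each is given as a difference of log2 changes with its adjusted p. Of these, 13 are values by line (of 36), and the others are means of the same 4 lines. By line 23.9% to 28.6% of all genes passed, and for the mean 33.3% did. The median difference of all genes was -0.12, -0.08, -0.08 and -0.10 by line, and -0.11 for the mean. AMD1 fell less in every MYCN line, by 0.91 in WT (1.1e-05), 0.80 in T58A (5.29e-05), 0.80 in S62A (3.52e-05), 0.65 in T58A S62A (0.000388) and 0.79 as the mean of the 4 lines (1.39e-06). ODC1 rose more as a share of the library, by 0.26 in T58A (0.00958), 0.19 in T58A S62A (0.0452) and 0.19 as the mean of the 4 lines (0.00935). The T58A S62A call of ODC1 was lost without a filter on low values (0.0684) and without any of 11 libraries in turn, up to 0.131 without SH-EP DMSO library 1, and the mean without that library (0.0533). SAT1 rose more in T58A S62A, by 0.83 (0.0314), a line whose 3 SAT1 values in DMSO lay between 2.17 and 5.46 FPKM. This was 0.54 (0.102) without T58A S62A DMSO library 1, and the call was also lost with only the groups compared (0.138), with no filter (0.052) and without any of 5 other libraries (0.0504 to 0.0927). AZIN1 had a lower response in T58A (-0.33, 0.00525), in S62A (-0.29, 0.0123) and as the mean of the 4 lines (-0.22, 0.0111). In WT the responses of OAZ1 (-0.31, 0.0217), OAZ2 (-0.28, 0.0437), SMS (-0.23, 0.0231) and SRM (-0.37, 0.0112) were lower, and that of SRM was also lower as the mean of the 4 lines (-0.22, 0.0453). OAZ1 was at -0.20 (0.0765) without WT DMSO library 0, and its call was also lost without WT CYC065 library 2 (0.0517), with only the groups compared (0.068) and with median centring (0.0507). The OAZ2 call was lost in 11 of 37 settings (0.0617 to 0.108), that of SMS with median centring (0.0656) and without any of 5 libraries (0.0518 to 0.0665), and the mean of SRM with no filter (0.0706), with median centring (0.103) and without any of 18 libraries (0.0522 to 0.156, the last without SH-EP DMSO library 2). On spike-in scaled FPKM 0 of the 36 values by line passed limma's test, and 10 had an unadjusted p under 0.05. All lines share the SH-EP libraries as control.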

How the results depend on the processing

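Each of 342 member values was recomputed under 37 settings, 30 of which left out a library. The call was kept under every setting for 253, changed under at least 1 for 89, and no called value changed sign. The interaction on spike-in scaled FPKM had 3 calls with a filter at 5 FPKM and 2 with robust eBayes, against 0. Mutants against WT had 0 calls as deposited and 9 spike-in scaled with only the groups compared, against 7 and 14. The cause was not tested. Leaving out 1 library gave, for members as deposited, 21 to 26 line calls, 38 to 39 CYC065 calls, 9 to 14 interaction calls and 4 to 8 mutant calls. Spike-in scaled, the ranges were 27 to 31, 31 to 36, 0 to 6 and 9 to 19. For the wider list they were 57 to 64 line and 66 to 71 CYC065 calls as deposited, and 59 to 67 and 88 to 95 spike-in scaled. With libraries named by their column number from 0 to 2, the scaled interaction had 6 calls without T58A DMSO 1, 5 without WT DMSO 1, 4 without WT CYC065 0 or SH-EP CYC065 2, 3 without T58A S62A CYC065 1, 2 without WT DMSO 2, and 1 without T58A DMSO 0 or T58A S62A DMSO 0. The mutant comparison had 4 calls as deposited without WT DMSO 0 or 1, and 9 spike-in scaled without WT DMSO 1 or 2 or T58A S62A DMSO 1. No paired analysis was possible because the columns carry no replicate number that matches the labels. The unknown read number limits the low genes most, PAOX, SMOX and SAT1.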
